A study of Mus musculus with 9 samples.

Results

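Mitogen-activated protein (MAP) kinases and dual-specificity phosphatases were followed in 9 whole-testis samples from mice at 3 weeks of age. The genes were chosen by symbol, as every gene whose name begins with Dusp, Mapk, Map2k or Map3k and a number. The rule found 68 of the 22337 genes measured by RNA sequencing, and 65 of the 68 were expressed highly enough to be tested. The family was selected on Dusp14, which was lower in homozygous testes than in both other genotypes, so the Dusp14 difference is described here and not tested. The mice carried no, 1 or 2 copies of the R264W substitution in Piwil4, the gene for a PIWI protein that binds piRNAs, made by CRISPR-Cas9 editing of C57BL/6 zygotes. There were 3 wild-type (WT-WT), 3 heterozygous (WT-KI) and 3 homozygous (KI-KI) samples. Their titles number them as replicates and do not name the mouse. Each testis is named by its genotype and replicate number, as in WT-WT-1. The allele was edited in the zygote and is therefore not restricted to a cell type.

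MAP kinase pathways pass a signal through 3 tiers of kinases, in which a MAP3 kinase activates a MAP2 kinase and the MAP2 kinase activates a MAP kinase by phosphorylating a threonine and a tyrosine. The ERK branch is best known downstream of growth factors, and the JNK and p38 branches downstream of stress and cytokines. Dual-specificity phosphatases remove phosphate from tyrosine and from serine or threonine. The classical members among them (MAP kinase phosphatases) carry a kinase-binding domain and switch MAP kinases off, and the atypical members lack it and have more varied substrates. In the testis these pathways act both in somatic cells, such as Sertoli cells, and in germ cells.

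At 3 weeks of age the first wave of spermatogenesis is producing its first round spermatids, so testes of the same age can differ in how far the wave has come. A stage score was therefore computed for each testis as the mean log2 CPM (counts scaled to the size of the library) of 19 genes known from round spermatids, none of which is a member of the family. The score ran from 1.11 to 5.92, and the largest gap between neighbouring testes was 1.19. From lowest to highest, the order was WT-KI-3 (1.11), WT-WT-3 (1.64), KI-KI-1 (2.64), WT-WT-2 (2.79), WT-KI-2 (3.71), KI-KI-2 (3.81), WT-KI-1 (4.99), KI-KI-3 (5.76) and WT-WT-1 (5.92). Each genotype spanned a wide range, with mean scores of 3.45 ± 2.22 in WT-WT, 3.27 ± 1.98 in WT-KI and 4.07 ± 1.58 in KI-KI (SD, n = 3). Values given below for 9 testes follow this order. The libraries held 17964135 to 24279056 estimated counts (median 20170732), so that 3 counts corresponded to 0.122 to 0.172 CPM. Piwil4 itself ran from 1.59 to 1.77 CPM in WT-WT, from 1.12 to 2.10 CPM in WT-KI and from 1.03 to 1.39 CPM in KI-KI, and a gene-level count does not show which allele was transcribed. All listed genes of pachytene spermatocytes (16), Sertoli cells (10) and Leydig cells (7) were detected in every testis, and 17 of the 19 round spermatid genes.

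The members that changed most with the score were phosphatases, and start-site sequence was at hand for some of them. Windows from 250 bases before to 50 bases after annotated start sites (RefSeq, GRCm38.p6) matched 51 of the 68 members, with 65 windows. The 3 windows below belong to Dusp10 and Mapk10, which rose with the score, and to Dusp14. The Dusp10 and Dusp14 windows lie inside the annotated genes, and that of Mapk10 at its outermost annotated start. Another Mapk10 window (chr5:103058343-103058642), not printed here, holds the letters TATAAA and no CRE. Capitals mark a GC box (GGGCGG on either strand) in Dusp10 and Dusp14, and a cAMP response element (CRE, TGACGTCA) in Mapk10.
Dusp10, chr1:184034131-184034430, plus strand: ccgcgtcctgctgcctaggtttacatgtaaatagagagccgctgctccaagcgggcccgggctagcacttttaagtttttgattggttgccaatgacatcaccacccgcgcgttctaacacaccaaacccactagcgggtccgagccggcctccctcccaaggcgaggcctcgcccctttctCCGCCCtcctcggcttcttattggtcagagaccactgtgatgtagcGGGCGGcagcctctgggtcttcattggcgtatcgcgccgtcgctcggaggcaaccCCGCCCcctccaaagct
Mapk10, chr5:103211285-103211584, minus strand: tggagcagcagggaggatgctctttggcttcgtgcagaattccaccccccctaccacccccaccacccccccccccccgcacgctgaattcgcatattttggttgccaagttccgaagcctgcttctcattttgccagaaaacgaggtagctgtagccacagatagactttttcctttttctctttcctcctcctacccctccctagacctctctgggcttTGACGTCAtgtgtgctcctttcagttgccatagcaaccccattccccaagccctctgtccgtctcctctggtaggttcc
Dusp14, chr11:84068308-84068607, minus strand: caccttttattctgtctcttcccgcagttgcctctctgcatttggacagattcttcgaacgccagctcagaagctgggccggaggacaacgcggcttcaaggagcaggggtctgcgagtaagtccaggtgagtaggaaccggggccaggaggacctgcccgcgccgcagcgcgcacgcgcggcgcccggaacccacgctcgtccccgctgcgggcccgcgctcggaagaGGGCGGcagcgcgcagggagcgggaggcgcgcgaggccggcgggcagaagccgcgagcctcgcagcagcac
The CRE letters stood in 3 of the 65 windows of the family (4.62%), against 1.79% of 32851 windows of all genes. The GC box stood in 41 windows (63.1%), against 35.7% of all windows. The AP-1 letters (TGANTCA) stood in 4 windows (6.15%), against 7.81%, and TATAAA stood in 3 (4.62%), against 13.6%. Both strands were searched, and no CRE match holds the AP-1 letters. A match is only a match of letters. Among the 8 matched members that rose with the score, the CRE letters occurred in Mapk10 only, the AP-1 letters in Dusp13 and Map2k7, and the GC box in 5.

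Levels within the family spanned a wide range when compared per length, as FPKM (fragments scaled to gene length and library size). The highest mean over the 9 testes belonged to Mapk6, which encodes the atypical MAP kinase ERK3, at 112 FPKM. It was followed by the ERK activator Map2k2 at 88.4 FPKM, the ERK1 gene Mapk3 at 61.1 FPKM and the atypical phosphatase Dusp15 at 51.6 FPKM. Among the JNK genes Mapk9 stood at 40.4 FPKM, Mapk8 at 27.0 FPKM and Mapk10 at 13.3 FPKM. The p38 genes were led by Mapk14 at 11.1 FPKM, with Mapk12 lowest at 0.317 FPKM. Classical phosphatases were low, with a median of 1.66 FPKM over 10 genes and a maximum of 9.02 FPKM for Dusp16. The lowest member was the MAP3 kinase gene Map3k19 at 0.00778 FPKM, and it was not tested, like Dusp26 and Dusp27. The spread between testes was close to that of all genes. The highest level was less than 1.5 times the lowest in 32 of the 65 tested members, 1.5 to 2 times in 18 and over 2 times in 15, with a median ratio of 1.503 against 1.543 over all tested genes.

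To ask which members changed with the progress of the first wave, the slope on the stage score was tested in all 9 testes with genotype in the model (quasi-likelihood test of edgeR, with p-values adjusted by Benjamini-Hochberg over 15771 genes). The slope is the log2 change in level per unit of score. With the score 10 members rose and 7 fell, and 48 did not pass. In a whole testis, fewer cells of a type and less RNA per cell cannot be told apart. The rising members made up 15.4% of those tested, against 17.7% of all tested genes, and the falling members 10.8%, against 8.71%. The family as a whole was therefore close to the background in both directions, with a median slope of -0.01 in the members and -0.01 in all genes. By role, the atypical phosphatases had 4 rising and 1 falling of 12 tested, the classical phosphatases 2 and 1 of 10, the MAP3 kinases 2 and 1 of 18, the MAP2 kinases 1 and 0 of 7, the JNKs 1 and 1 of 3, the ERK-type kinases 0 and 2 of 6, the p38 kinases 0 and 1 of 4, and the scaffold and interacting proteins 0 and 0 of 5.

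**Figure D1:**
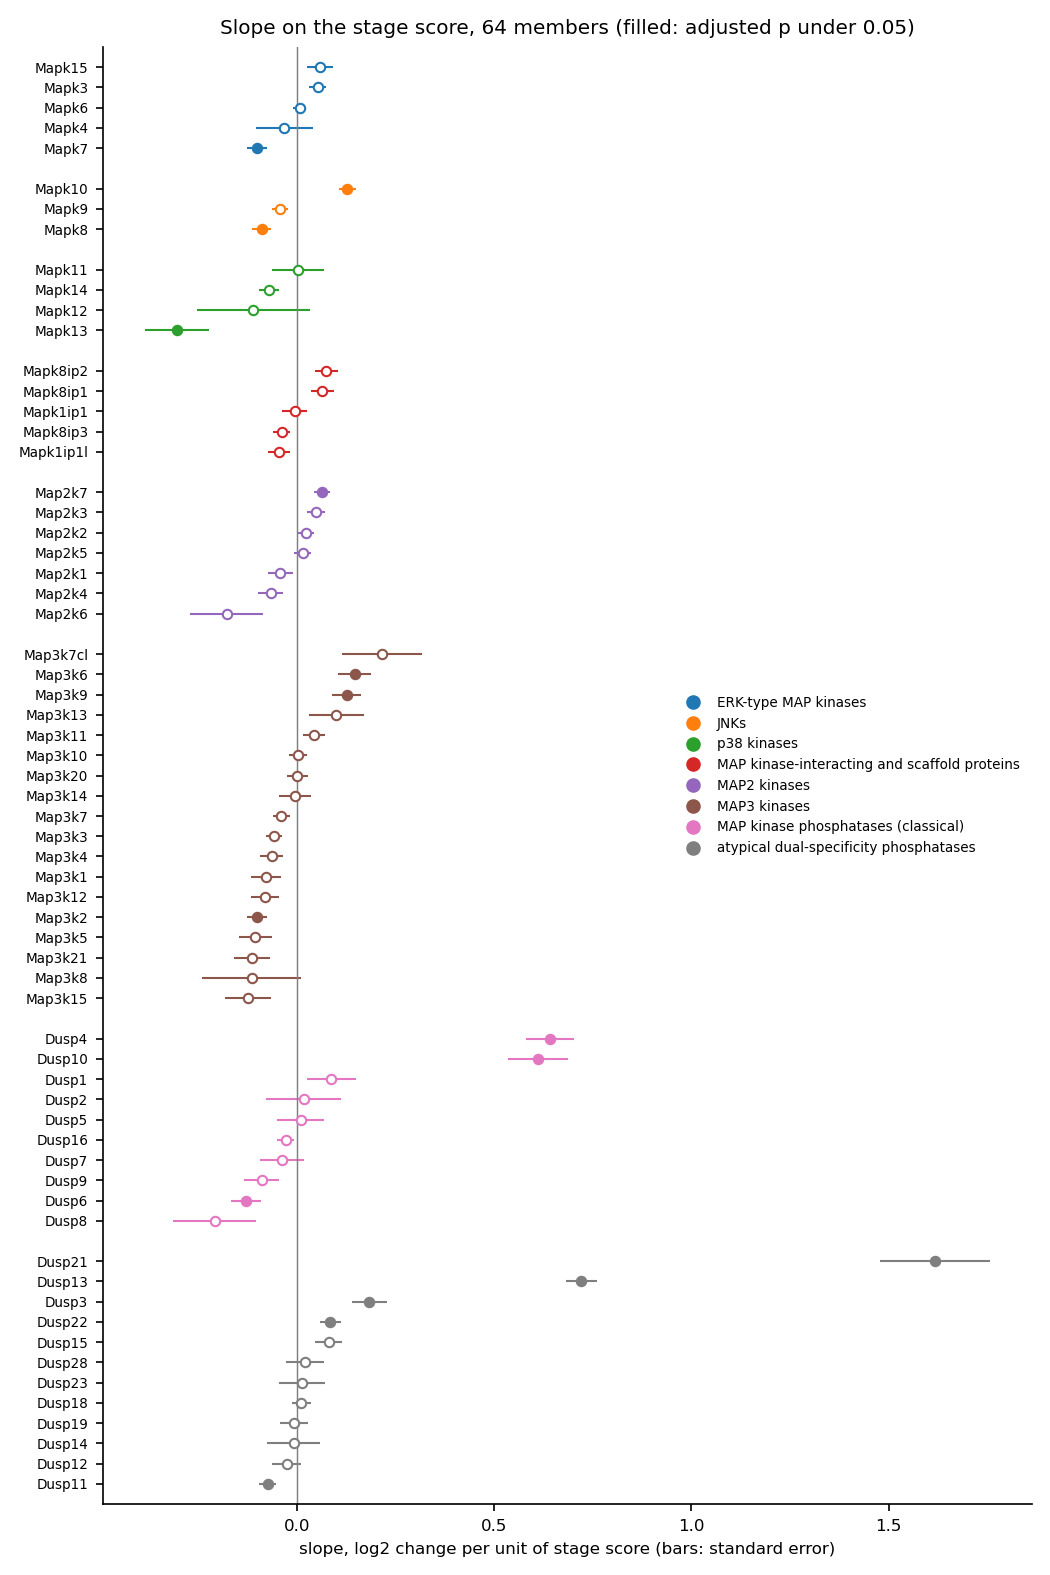
Slope of 64 of the 65 tested members on the stage score, in log2 change per unit of score, grouped by role, with bars for the standard error and filled points for an adjusted p under 0.05. Dusp21 (1.62), Dusp13 (0.72), Dusp4 (0.64) and Dusp10 (0.61) stand to the right of the other members, which lie between -0.30 and 0.22.

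The MAP3 kinases at the top of the cascade moved little. Map3k6, the gene of the stress kinase ASK2, rose with a slope of 0.15 (SE 0.04, adjusted p = 0.0217), and Map3k9, which encodes a mixed-lineage kinase, rose with 0.13 (SE 0.04, adjusted p = 0.0239). Map3k6 was at 5.31, 4.24, 5.59, 5.39, 6.48, 6.19, 6.23, 8.70 and 7.36 CPM, with the 2 highest scores above the rest. Map3k9 was at 9.46, 8.92, 7.91, 7.89, 9.998, 10.7, 12.9, 11.2 and 12.4 CPM, and its 3 highest values came from the 3 highest scores. Map3k2 (MEKK2), which lies upstream of the ERK5 branch, fell with -0.10 (SE 0.03, adjusted p = 0.0113), from 49.2 CPM in WT-KI-3 to 33.8 CPM in WT-WT-1 and 29.6 CPM in KI-KI-3. The remaining 15 tested members of this tier did not pass, with slopes from -0.12 to 0.22. Map3k7cl, which is counted here by its symbol, is not a kinase and had the slope of 0.22 at levels of 0.441 to 1.21 CPM.

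In the MAP2 kinase tier only Map2k7, the gene of a JNK activator, passed, with a slope of 0.06 (SE 0.02, adjusted p = 0.035). Its levels were 76.5, 78.3, 75.9, 85.3, 78.9, 77.8, 83.6, 96.3 and 95.1 CPM. They were highest in the testes with the 2 highest scores, and the model Gm49320 overlaps Map2k7 on the same strand. The ERK activators Map2k1 (-0.04) and Map2k2 (0.02) had slopes with adjusted p values of 0.347 and 0.475.

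Among the MAP kinases, the closely related JNK genes went in opposite directions. Mapk10, the gene of JNK3, stood at 41.4, 37.5, 41.3, 45.4, 51.5, 48.8, 51.8, 58.2 and 58.8 CPM and rose with a slope of 0.13 (SE 0.02, adjusted p = 0.00078). Mapk8, the gene of JNK1, stood at 69.5, 72.2, 63.2, 58.6, 53.1, 58.7, 60.0, 49.3 and 52.9 CPM and fell with -0.09 (SE 0.02, adjusted p = 0.0153). Mapk9, the JNK2 gene, had a slope of -0.04 that did not pass (adjusted p = 0.12). The gene models Gm42522 and Gm43789 overlap Mapk10 on its own strand, Gm49037 overlaps Mapk8 on its own strand, and Gm46448 overlaps it on the opposite strand.

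The ERK5 gene Mapk7 fell and the ERK1 gene Mapk3 did not pass, with a slope of 0.05 (adjusted p = 0.0798). Mapk7 stood at 26.0, 25.1, 23.1, 24.3, 22.1, 20.6, 21.4, 18.2 and 18.0 CPM, with a slope of -0.10 (SE 0.02, adjusted p = 0.00912). The ERK-type genes Mapk6, Mapk15 and Mapk4 did not pass either, with slopes of 0.01, 0.06 and -0.03. Mfap4 overlaps Mapk7 on the opposite strand.

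Of the p38 genes only Mapk13 (p38 delta) passed. Mapk13 was at 6.04, 6.51, 3.17, 3.68, 3.69, 4.19, 4.39, 2.29 and 1.26 CPM, and its slope of -0.30 (SE 0.08, adjusted p = 0.0151) was the most negative of the family. The 2 testes with the lowest scores were the highest and the 2 with the highest scores the lowest. The highest-score testis was at 0.193 of the level of the lowest-score testis in WT-WT, 0.727 in WT-KI and 0.721 in KI-KI. The p38 alpha gene Mapk14 had a slope of -0.07 (adjusted p = 0.0566).

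**Figure D2:**
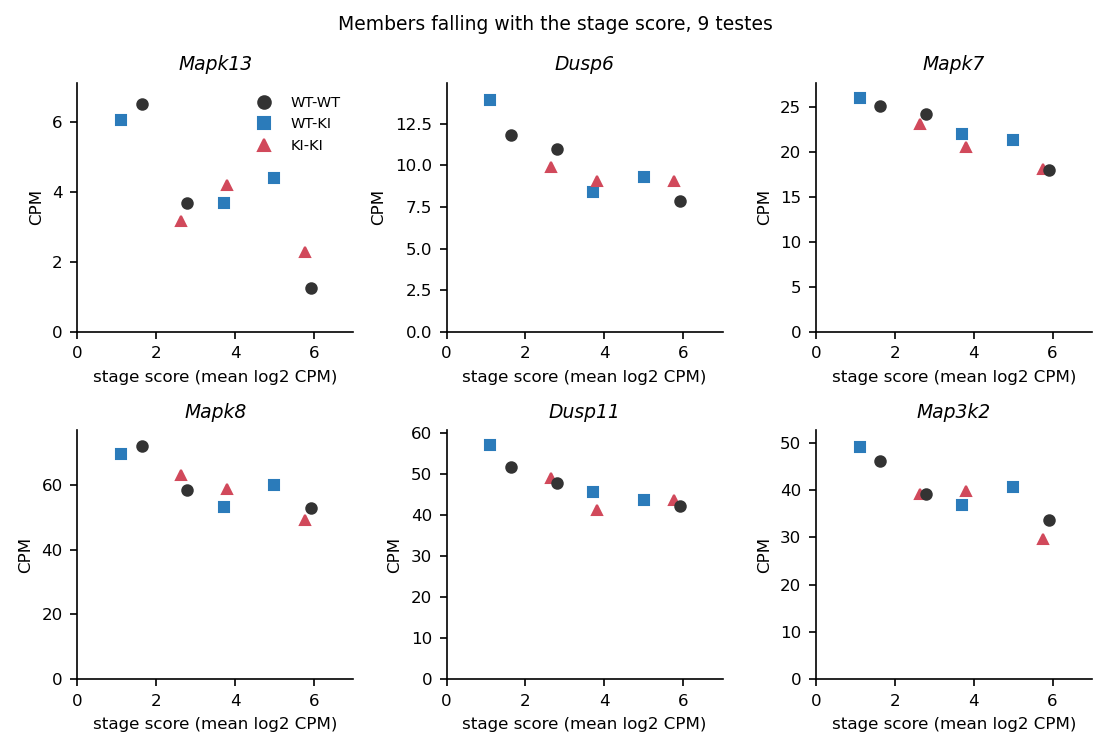
Levels in CPM against the stage score in 9 testes for 6 of the 7 members that fell (circles WT-WT, squares WT-KI, triangles KI-KI). Mapk13 ran from 6.51 CPM at low scores to 1.26 CPM at the highest score, and Mapk7 from 26.0 to 18.0 CPM.

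Phosphatases gave the steepest slopes. Dusp21, an atypical phosphatase gene with a single exon on the X chromosome (GRCm38 X, 18145857 to 18146701, plus strand), had counts of 0, 0, 3, 2, 3, 18, 35, 62 and 84 in the 9 testes. This corresponded to 0, 0, 0.134, 0.098, 0.168, 0.732, 1.57, 3.55 and 3.91 CPM. WT-WT-1 was at least 27.0-fold higher than WT-WT-3, and WT-KI-1 at least 9.95-fold higher than WT-KI-3, each against 3 counts in the library at 0. The fitted slope was 1.62 (SE 0.14, adjusted p = 1.06e-06), and it depends on the prior count for libraries at 0.

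Dusp13, an atypical phosphatase gene known for expression in testis and skeletal muscle (GRCm38 14, 21733394 to 21751181, minus strand), rose from 5.46 to 69.9 CPM. Its levels were 5.46, 8.15, 15.1, 17.1, 31.3, 24.5, 41.2, 69.9 and 69.6 CPM, with a slope of 0.72 (SE 0.04, adjusted p = 8.63e-09). Within each genotype the testis with the highest score was above that with the lowest, by 8.54-fold in WT-WT, 7.54-fold in WT-KI and 4.62-fold in KI-KI. Genes on the opposite strand (Samd8 and Gm15935) overlap it in the annotation, and whether the counting used strand is not given in the sources used here.

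The classical phosphatase gene Dusp4, whose product is a nuclear MAP kinase phosphatase, was at 1.26, 1.45, 3.71, 3.38, 6.87, 4.56, 7.21, 12.9 and 11.8 CPM. Its slope was 0.64 (SE 0.06, adjusted p = 2.98e-06), and the top testis was 8.18-fold, 5.72-fold and 3.47-fold above the bottom testis in WT-WT, WT-KI and KI-KI. Dusp10, whose product prefers JNK and p38, was at 1.73, 1.40, 1.43, 2.21, 1.84, 3.09, 4.84, 8.47 and 10.3 CPM, with a slope of 0.61 (SE 0.08, adjusted p = 4.67e-05). Dusp10 stood between 1.40 and 2.21 CPM in the 5 testes with the lowest scores and between 3.09 and 10.3 CPM in the 4 others. The annotated gene (GRCm38 1, 184013302 to 184075636, plus strand) is overlapped by 1700056E22Rik on the opposite strand.

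Smaller rises were measured in Dusp3, which encodes a phosphatase of ERK and JNK, and in Dusp22. Dusp3 was at 18.4, 14.1, 18.4, 14.4, 14.5, 18.6, 26.1, 25.5 and 29.1 CPM (slope 0.18, SE 0.04, adjusted p = 0.00914), with the 3 highest scores above the rest. Cfap97d1 and Gm20659 overlap Dusp3 on the opposite strand. Dusp22, which encodes a phosphatase linked to JNK signalling, ran from 14.3 CPM in WT-KI-3 to 22.0 CPM in WT-WT-1 (slope 0.09, SE 0.03, adjusted p = 0.0318). Dusp6, the gene of a cytoplasmic phosphatase specific for ERK that is itself induced by ERK signalling, fell from 13.9 to 7.87 CPM (slope -0.13, SE 0.04, adjusted p = 0.0231), and Dusp11, whose product is an RNA phosphatase, fell from 56.9 CPM in WT-KI-3 to 42.2 CPM in WT-WT-1 (slope -0.07, SE 0.02, adjusted p = 0.0272). Gm19265 overlaps Dusp11 on the opposite strand. The other classical phosphatases, Dusp1, Dusp2, Dusp5, Dusp7, Dusp8, Dusp9 and Dusp16, did not pass, with slopes from -0.21 to 0.09.

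**Figure D3:**
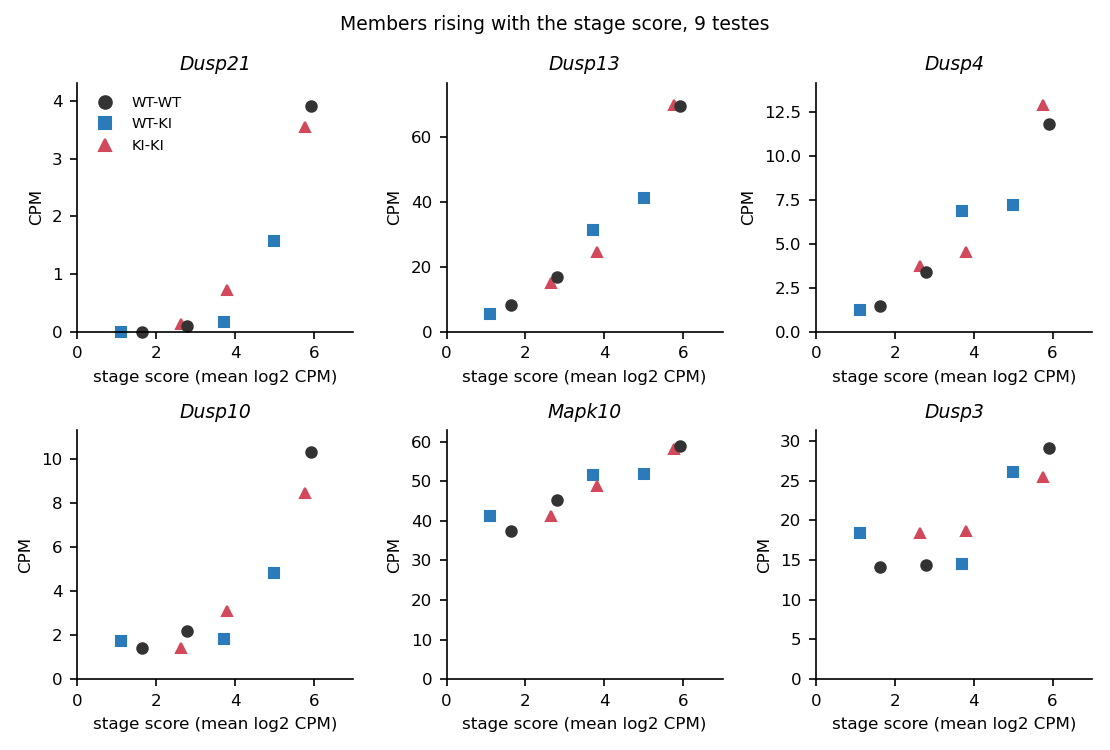
Levels in CPM against the stage score in 9 testes for 6 of the 10 members that rose (circles WT-WT, squares WT-KI, triangles KI-KI). Dusp13 climbed from 5.46 to 69.9 CPM, Dusp21 from 0 to 3.91 CPM, and Dusp10 from 1.40 to 10.3 CPM.

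Inside all 3 genotypes the level followed the order of the score upward for 6 members (Map2k7, Dusp13, Dusp21, Dusp4, Dusp10 and Mapk10) and downward for Mapk7 alone, against 7.19% and 3.15% of all tested genes in the same directions. The number of calls depended on single testes. Without WT-WT-1 there were 5 rising and 0 falling members, without WT-KI-1 17 and 17, without KI-KI-1 6 rising, without KI-KI-3 6 rising, and without WT-WT-3 or WT-KI-3 2 falling. The share of all genes called in these fits is not given here, so the counts do not show a trait of the family. Dusp21, Dusp13, Dusp4, Dusp10 and Mapk10 passed in all alternative fits in which they were tested (19 fits, or 18 for Dusp21). With the main fit counted, Dusp22 and Map3k9 passed in 11 of 20 fits, Map2k7 and Dusp11 in 12, and Mapk13 in 17. The summed level of 7 Leydig cell genes was 179 and 178 CPM in the 2 testes with the lowest scores and 443 and 422 CPM in the 2 with the highest, and 2 of the 7 rose. The sum of 8 early meiotic genes went from 2138 and 2070 CPM to 1402 and 1636 CPM, and 5 of the 8 fell. Of 16 pachytene spermatocyte genes 9 rose and 1 fell. The sum of 13 spermatogonial genes went from 370 and 346 CPM to 265 and 272 CPM, with 1 rising and 2 falling of 12 tested. The sum of 10 Sertoli cell genes went from 2146 and 2042 CPM to 1705 and 1499 CPM, with 1 rising and 3 falling. Most of this sum was Clu, at 940 to 1467 CPM over the 9 testes, whose slope of -0.04 did not pass (adjusted p = 0.33). Between these end testes the sums did not follow the score evenly. The highest Leydig cell sum was in KI-KI-2 (444 CPM) and the highest Sertoli cell sum in WT-KI-1 (2317 CPM). The spermatogonial sum in WT-KI-1 was 347 CPM. The part of these cell types in the slopes of the family was not tested.

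Genes around the family in the same pathways were counted from lists of 64 genes, of which 62 were tested. With the score 5 rose and 9 fell (8.06% and 14.5%, against 17.7% and 8.71% of all tested genes). In the RAS and RAF list 2 rose and 3 fell of 17, in the MAP kinase-activated kinases 1 and 1 of 10, in the ERK-responsive genes 2 and 3 of 19, in the transcription factors of the stress kinases 0 and 2 of 11, and in the MAP4 kinases 0 and 0 of 5. The largest rise was that of Egr3, an immediate early transcription factor, at 0.788, 0.771, 0.983, 1.47, 2.12, 2.81, 2.42, 4.29 and 6.66 CPM (slope 0.61). Ksr2, a scaffold of the ERK cascade, rose with 0.39, Spred3, an inhibitor of it, with 0.28, the kinase gene Rps6ka1 with 0.13 and Braf with 0.06. The falling genes included Mef2c (-0.16), Elk1 (-0.15), Spry1 (-0.14), Egr1 (-0.14) and Spred1 (-0.13), and also Rras2, Grb2 and Mapkapk2 with slopes from -0.12 to -0.07. The immediate early genes Egr1 and Egr3 thus moved in opposite directions.

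Dusp14 was left out of the genotype counts, since its values chose the family. Between the genotypes no member passed, whether or not Dusp14 was counted. At an adjusted p under 0.05, 0 of 63 tested members were called in KI-KI against WT-WT, 0 of 64 in KI-KI against WT-KI and 0 of 63 in WT-KI against WT-WT by edgeR's quasi-likelihood test, which called 0% of all genes in each comparison. DESeq2 called 0 members in each, and 2, 6 and 0 of all genes. An unadjusted p under 0.05 was reached by 1 of 63, 1 of 64 and 0 of 63 of these members with edgeR, against 1.26%, 2.22% and 1.11% of all genes, and by 1, 0 and 0 members with DESeq2.

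The levels of the central kinases lay close together. Mapk3 was at 110 ± 6.99 CPM in WT-WT, 110 ± 11.3 in WT-KI and 116 ± 13.1 in KI-KI (SD, n = 3), and its log2 fold change in KI-KI against WT-WT was 0.08 (SE 0.10). Mapk6 was at 474 ± 21.0, 453 ± 17.4 and 480 ± 16.9 CPM, and Mapk14 at 39.7 ± 4.77, 41.6 ± 5.13 and 38.9 ± 4.52 CPM. With Dusp14 left out, 63 of 63 members had a log2 fold change within 0.5 of 0 in KI-KI against WT-WT, and 59 of 64 in KI-KI against WT-KI. In WT-KI against WT-WT, with Dusp14 counted, the number was 61 of 64. A p that misses the threshold does not show that levels were equal.

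With Dusp14 set aside, the members with an unadjusted p under 0.05 were Mapk1ip1 and Mapk12. Mapk1ip1, counted here with the interacting proteins, was at 11.3 ± 0.816 CPM in KI-KI and 14.99 ± 0.467 CPM in WT-WT (log2 fold change -0.41, SE 0.12, adjusted p = 0.9998). All 3 KI-KI testes were below the 3 WT-WT testes. The WT-KI mean of 13.6 ± 1.47 CPM lay in between, but WT-KI overlapped KI-KI, with WT-KI-1 below KI-KI-3. Ppp2r2d overlaps Mapk1ip1 on the opposite strand. Dusp28 had all 3 KI-KI testes above the 3 WT-WT testes, without an unadjusted p under 0.05. Its 3 WT-KI testes were above the 3 WT-WT testes too, and 5033417F24Rik overlaps Dusp28 on the opposite strand. In KI-KI against WT-KI, Map3k20, Dusp19 and Dusp22 separated upward and Dusp12 and Dusp5 downward, also without an unadjusted p under 0.05. The share of all genes with such a separation of 3 against 3 is not given here. Mapk12, the gene of p38 gamma, was at 0.345 ± 0.0687 CPM in KI-KI and 0.865 ± 0.284 CPM in WT-KI (log2 fold change -1.31, SE 0.41, adjusted p = 0.948). Its counts were 6, 9 and 7 in KI-KI and 12, 18 and 20 in WT-KI. In WT-WT Mapk12 reached 0.548 ± 0.417 CPM and was not tested against KI-KI because of its low level. The unadjusted p of Mapk1ip1 was 0.0517 in the fit across all genes without KI-KI-2 (log2 fold change -0.36). That of Mapk12 was 0.057 without WT-KI-2 (-1.19), 0.0634 without WT-KI-3 (-1.14), 0.0587 without KI-KI-1 (-1.15), 0.0563 by DESeq2 and 0.0514 with the stage score in the model.

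**Figure D4:**
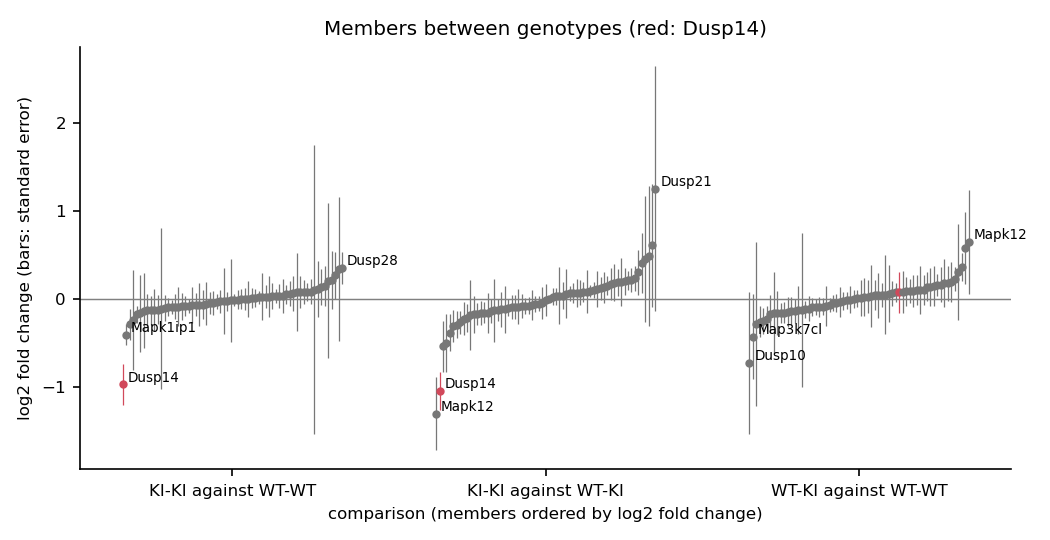
Log2 fold changes of the tested members in the 3 comparisons of genotypes, ordered within each, with bars for the standard error and Dusp14 in red. Most members lie near 0, and Dusp14 stands at -0.98 in KI-KI against WT-WT, -1.05 in KI-KI against WT-KI and 0.07 in WT-KI against WT-WT.

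Dusp14, which encodes a small atypical phosphatase of MAP kinases, selected the family, so its values in KI-KI are given without a test. The gene (ENSMUSG00000018648, GRCm38 11, 84048041 to 84069261, minus strand) has 4 exons and 594 coding bases, and no annotated gene overlaps it. Its counts were 24, 27 and 19 in KI-KI, 41, 40 and 53 in WT-WT and 58, 38 and 39 in WT-KI. That corresponded to 1.07, 1.10 and 1.09 CPM in KI-KI, with a mean of 1.09 ± 0.0129, against 2.14 ± 0.359 in WT-WT and 2.26 ± 0.299 in WT-KI (SD, n = 3). At 19 to 27 counts per KI-KI library, the SD of 0.0129 CPM understates the uncertainty of the level. In FPKM the same testes were at 0.80, 0.93 and 0.93. The 3 KI-KI testes lay below all 6 others, whose lowest value was 1.91 CPM.

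On the log2 scale the fitted differences were -0.98 against WT-WT and -1.05 against WT-KI, and 0.07 between WT-KI and WT-WT. Computed from FPKM, which is scaled to length, the differences were -0.75 and -0.86, from 0.80, 0.93 and 0.93 FPKM in KI-KI, 1.20, 1.44 and 1.83 FPKM in WT-WT and 1.76, 1.42 and 1.65 FPKM in WT-KI. With the stage score in the model the differences were -0.97 and -1.05. Dusp14 had no slope on the score that passed (-0.01, adjusted p = 0.945). Dusp14 was the only member of the 65 with all 3 KI-KI testes below all 6 others, which held for 0.564% of all tested genes, and this count follows from how the family was chosen. No member had all 3 above, which held for 0.583%. No summed level of the 12 marker lists of testis cell types and neighbouring tissues set the 3 KI-KI testes apart from all 6 others.

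**Figure D5:**
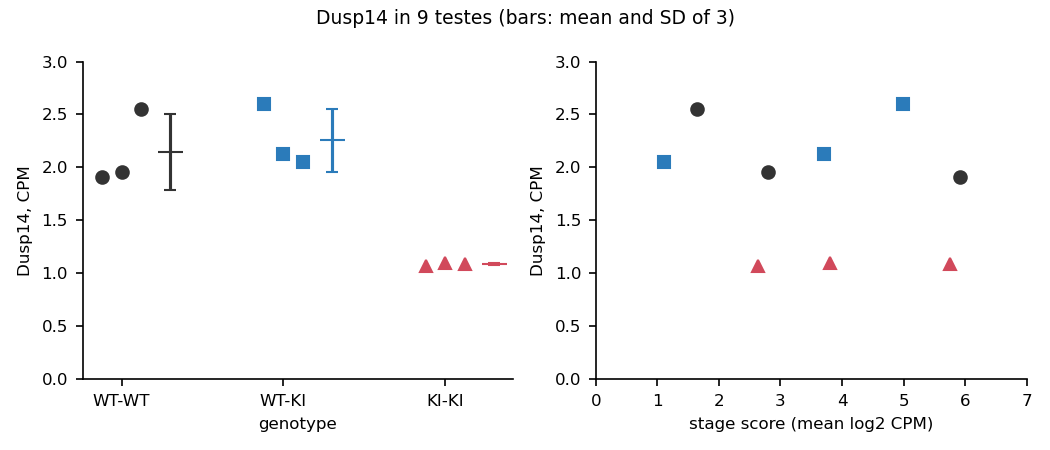
Dusp14 level in CPM in 9 testes by genotype, with the mean and SD of 3, and the same values against the stage score. The KI-KI testes stand at 1.07 to 1.10 CPM across scores from 2.64 to 5.76, and the 6 others at 1.91 to 2.60 CPM.

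In the pathway lists no gene passed between genotypes. Of 61 tested genes, 5 had an unadjusted p under 0.05 in KI-KI against WT-KI, 1 in WT-KI against WT-WT and 0 in KI-KI against WT-WT, where the shares of all genes were 2.22%, 1.11% and 1.26%. They are named here after their values were seen. Ier2 (-0.50), Egr1 (-0.49), Mapkapk3 (-0.43) and Fosl2 (-0.33) had lower values in KI-KI than in WT-KI, and Spred3 (0.86) a higher one, each with an adjusted p of 0.948. Egr1 was at 7.63 ± 1.42 CPM in KI-KI and 10.7 ± 0.319 CPM in WT-KI, and Ier2 at 6.73 ± 0.594 and 9.56 ± 0.383 CPM. Mapkapk3 was also the gene counted in WT-KI against WT-WT (0.49, adjusted p = 0.9998), so its WT-KI level of 8.81 ± 0.428 CPM stood above both KI-KI (6.52 ± 0.894) and WT-WT (6.28 ± 1.01).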

How the data were processed

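Total RNA from whole testes was sequenced from libraries made with an mRNA-seq kit, 3 samples per genotype. Per the labels, reads were filtered with fastp (version 0.18.0) and assembled with StringTie (version 1.3.1), with DESeq2 and mm39 also named in the submitters' processing notes. The aligner, counting tool and strand setting are not given in the sources used here. The table deposited by the authors gives each gene 2 values per testis: FPKM, and estimated counts whose totals differ between libraries. Of the deposited estimated counts, 89.2% were exactly whole, with no tolerance.

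Estimated counts were rounded and analysed in R (version 4.3.3) with edgeR (version 4.0.16): filterByExpr, TMM scaling and the two-sided quasi-likelihood test with Benjamini-Hochberg adjustment, called at 0.05, for each pair of genotypes (6 testes) and for the stage slope (9 testes, genotype in the model). The stage score is the mean log2 CPM (prior count 1) of 19 of 20 round spermatid genes, since 1 was not found in the table. Alternatives used DESeq2 (version 1.42.0), limma (version 3.58.1) on log2 FPKM with a pseudocount of 0.1 or 0.01, other filters and scalings, a pachytene score, a replicate block and leaving out each testis. The scripts were tested on simulated data. The replicates are separate samples by their labels, so p-values measure the spread between these samples, and the group comparisons share the KI-KI, WT-KI or WT-WT libraries.

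The genes, lists and tests were chosen with earlier results of these data known. Named for the stage are the members past the threshold (up to 10 in each direction) and members of the kinase and classical phosphatase roles, and for genotype those with an unadjusted p under 0.05. Gene models are GENCODE GRCm38, matched by identifier for all 68 members. They are not of the build named for the files. RefSeq start windows were matched by symbol. Some single genes are not reported here.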

Additional observations from a re-analysis of the deposited data

How the results depend on the processing

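Between genotypes the number of members called was 0 in the 45 alternative fits run. The number of falling members was 7 and became 16 with library totals in place of TMM (chosen after seeing the data), 11 without the genotype term and 17 with the pachytene score. Leaving out each testis in turn gave 5 to 17 rising and 0 to 17 falling members. The share of all genes called in these fits is not given here, so the changes are not read as particular to the family. The cause was not tested. The median slope of all genes was -0.01 with TMM, -0.04 with library totals and -0.14 per unit of the pachytene score. For 20 members, the 17 called and 3 kinases near the threshold, slopes kept their sign in the alternatives run: 306 values stayed on their side of the threshold, 60 lost the call and 13 gained it. With the round spermatid score, 17 of the 48 members that were not called changed sign, among them Mapk6 (-0.02 to 0.02), Map2k2 (-0.01 to 0.04), Mapk4 (-0.07 to 0.01), Dusp2 (-0.06 to 0.12), Dusp5 (-0.03 to 0.03) and Dusp14 (-0.05 to 0.04). Over the alternatives that used the round spermatid score, slopes ran from 0.68 to 0.75 for Dusp13, 1.19 to 1.93 for Dusp21, 0.59 to 0.68 for Dusp4, 0.52 to 0.74 for Dusp10 and 0.10 to 0.14 for Mapk10. For Mapk13 the slopes ran from -0.40 to -0.18. Dusp21 was not tested where at least 10 counts were required in every library.

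The Dusp14 difference between WT-KI and WT-WT changed sign without WT-WT-1 (-0.0003) and without WT-KI-1 (-0.0385), and ran up to 0.22 when other testes were left out. The KI-KI differences were -0.75 and -0.86 as ratios of mean FPKM, and ran from -1.05 to -0.83 against WT-WT and from -1.12 to -0.94 against WT-KI when each testis was left out. The differences of Mapk1ip1 and Mapk12 lost their unadjusted p under 0.05 in 7 alternative fits, 1 of them the replicate block (Mapk1ip1).

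The replicate numbers are shared by the genotypes. Deviations of same-numbered testes from their genotype means correlated from -0.73 to 0.78, with 2 of 9 above 0.1. Differently numbered testes correlated from -0.81 to 0.80, with 10 of 18 above 0.1. The stage score was not removed from these deviations, so the correlations cannot decide whether testes were paired. With the replicate block 7 members rose and 5 fell, and 0 were called between genotypes. Counts of 3 or fewer in some libraries limit Dusp21, Dusp26, Dusp27 and Map3k19.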
